A study of Mus musculus with 12 samples.

Results

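Nell2, Arhgap20, Tmem178 and Cox6b2 are 4 genes outside the usual lists of p53 targets whose transcripts were more abundant in mouse glomeruli after adriamycin. They are 4 of the 26264 gene symbols that were counted. The 4 genes were chosen by their difference between Day 5 after adriamycin and baseline in these same libraries, so that difference is described here without a test. Tested were the differences between the substrains at baseline and at Day 5 and the substrain by treatment interaction. The genes were not picked by these values directly. They come from the same libraries, and the interaction is the difference between the responses of the substrains that were used in the choice. These tests are therefore not independent of the choice. The mice were males of 8 weeks and belonged either to BALB/cAjcl, here Ajcl, or to BALB/cByJcl, here ByJcl, both derived from the inbred strain BALB/c. Of each substrain, 3 glomerulus-enriched libraries came from untreated baseline mice, and 3 came from mice on Day 5 after adriamycin (ADR, doxorubicin hydrochloride), given once at 10 mg/kg by the retro-orbital route under isoflurane. Apart from the substrain, no engineered allele is named for any group. The labels call the 6 control libraries untreated baseline, while the protocol and the methods of the study also speak of control mice given saline. If the control mice had no injection, as their labels say, ADR cannot be told apart from the injection and the anaesthesia. Baseline and Day 5 counts were also given in separate tables, and table and treatment cannot be told apart.

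Adriamycin intercalates into DNA and poisons topoisomerase II, and the resulting strand breaks stabilize the transcription factor p53, which then switches on genes for cell cycle arrest, DNA repair and apoptosis. In susceptible mouse strains the drug injures podocytes, the cells that hold the glomerular filter, and causes proteinuria. The 4 genes are known from other settings. Nell2 encodes a secreted glycoprotein with epidermal growth factor-like repeats that is made by neurons and acts as a ligand of Robo3 in axon guidance. Arhgap20 encodes a GTPase-activating protein that is switched on by Rap1. Tmem178 encodes a membrane protein of the endoplasmic reticulum that binds the calcium sensor Stim1 and restrains store-operated calcium entry. Cox6b2 encodes the testis form of a subunit of cytochrome c oxidase, the last complex of the respiratory chain, whose widely expressed form is Cox6b1.

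The genes lie on different chromosomes in GRCm39, by the GENCODE annotation. Nell2 is on chromosome 15 from 94973111 to 95465972 on the minus strand, and its 3′ end overlaps Tmem117 on the opposite strand. Arhgap20 is on chromosome 9 from 51676602 to 51765342 on the plus strand, and the antisense gene Arhgap20os overlaps its 3′ part. Tmem178 is on chromosome 17 from 81251950 to 81316567 on the plus strand. A long noncoding gene on the opposite strand, Gm65830, overlaps Tmem178 and is not among the counted symbols. Long noncoding genes that were not counted also overlap Nell2. Cox6b2 is on chromosome 7 from 4754789 to 4756093 on the minus strand, and no annotated gene overlaps it. The strand setting of the counting is not given in the sources used here, so reads of Nell2 and Tmem117, or of Arhgap20 and Arhgap20os, could have been exchanged.

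The stretches around the start sites of members that are higher together are shown to let the promoters be compared. RefSeq gave a window of 300 bases, on its build GRCm38.p6, for 3 of the 4 genes, and Nell2 had no entry. The capitals mark GC boxes (GGGCGG or CCGCCC) and CCAAT boxes (CCAAT or ATTGG), read on both strands, with overlapping matches counted separately.
Arhgap20, chr9:51765101-51765400, plus strand: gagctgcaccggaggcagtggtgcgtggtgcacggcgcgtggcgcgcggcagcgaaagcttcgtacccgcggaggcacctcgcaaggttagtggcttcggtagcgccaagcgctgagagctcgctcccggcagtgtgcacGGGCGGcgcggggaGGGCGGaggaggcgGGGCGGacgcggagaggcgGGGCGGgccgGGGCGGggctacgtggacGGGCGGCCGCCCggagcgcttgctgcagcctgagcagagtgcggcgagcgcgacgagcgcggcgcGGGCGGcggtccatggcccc
Tmem178, chr17:80944382-80944681, plus strand: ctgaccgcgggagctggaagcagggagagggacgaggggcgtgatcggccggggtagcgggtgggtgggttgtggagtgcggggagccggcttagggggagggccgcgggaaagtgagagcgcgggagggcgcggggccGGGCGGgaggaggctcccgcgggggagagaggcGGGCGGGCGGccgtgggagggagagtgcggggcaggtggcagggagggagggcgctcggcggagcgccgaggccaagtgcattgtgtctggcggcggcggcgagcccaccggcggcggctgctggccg
Cox6b2, chr7:4753045-4753344, minus strand: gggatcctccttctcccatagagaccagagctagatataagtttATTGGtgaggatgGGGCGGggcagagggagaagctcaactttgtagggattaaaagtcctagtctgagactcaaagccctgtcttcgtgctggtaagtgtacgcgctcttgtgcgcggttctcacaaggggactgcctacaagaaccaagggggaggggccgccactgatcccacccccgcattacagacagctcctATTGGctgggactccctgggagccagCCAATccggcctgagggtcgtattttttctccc

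These windows were of different kinds. The Arhgap20 window was 77.0% G or C with 48 CpG dinucleotides and 8 GC boxes. The Tmem178 window was similar in base content, at 77.7% G or C, with 37 CpG dinucleotides and 3 GC boxes. Only 2.43% of the 32851 RefSeq mouse windows were as rich in G and C as that of Arhgap20. The Cox6b2 window was near the common run of mouse promoters, at 55.7% G or C against a median of 52.7%, with 10 CpG dinucleotides against a median of 7. It held 1 GC box and 3 CCAAT boxes, while the other two windows held no CCAAT box. Of all windows, 35.7% held a GC box and 37.4% a CCAAT box. The p53 decamer, of which a full p53 site holds a pair, was matched to its consensus without a mismatch and was found in 8.36% of all windows and in 0 of the 3 shown.

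The search for the full p53 site was also made over 5000 bases on either side of the annotated gene start in GRCm39, with up to 13 bases between the decamers. A full site was present for 739 of 23897 genes of the tables, 3.09%. It was present for 4 of the 30 genes of a list of known p53 targets, 13.3%, namely Cdkn1a, Trp53inp1, Zmat3 and Polk. For the 4 genes described here the number was 0. The absence of a match says only that these letters are not in these windows, and most of the p53 targets had none either.

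Nell2 had the highest counts of the 4 genes. Its level in TMM-normalized CPM, the count scaled to the size of its library, was 32.3, 34.3 and 32.4 in the Ajcl baseline libraries, in the order of the replicate numbers, and 36.4, 23.5 and 29.7 in the ByJcl baseline libraries. At Day 5 it was 60.7, 95 and 87.8 CPM in Ajcl and 54.3, 58.7 and 68.0 CPM in ByJcl. Every Day 5 library of a substrain lay above every baseline library of that substrain, and Nell2 was the only one of the 4 whose Ajcl Day 5 libraries of the fit both lay above all ByJcl Day 5 libraries. The Ajcl Day 5 replicate 1, the lowest of its group for Nell2, was left out of the fit because the study excluded it for reduced glomerular purity. Without it the Ajcl mean went from 33.0 ± 1.13 (SD, n = 3) to 91.4 ± 5.06 CPM (SD, n = 2), a fitted fold of 2.79. With it the Day 5 mean was 81.2 ± 18.1 CPM (SD, n = 3). The ByJcl mean went from 29.9 ± 6.48 to 60.3 ± 7.02 CPM (SD, n = 3 each), a fitted fold of 2.00.

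Arhgap20 was scarce at baseline and had the highest fold of the 4 genes. It had 42, 47 and 52 counts in the Ajcl baseline libraries and 60, 48 and 112 in the ByJcl baseline libraries, which correspond to 0.970, 0.991 and 1.11 CPM and to 1.29, 1.01 and 2.04 CPM. At Day 5 it reached 4.2, 8.73 and 23.9 CPM in Ajcl and 13.3, 26.4 and 21.2 CPM in ByJcl. The Day 5 libraries were far apart from each other in Ajcl, where the highest was 5.68 times the lowest, and they still lay above every baseline library. The Ajcl mean went from 1.02 ± 0.0760 (SD, n = 3) to 16.3 ± 10.7 CPM (SD, n = 2), a fitted fold of 16.1, and the ByJcl mean from 1.45 ± 0.534 to 20.3 ± 6.61 CPM (SD, n = 3 each), a fitted fold of 13.8. The Ajcl value depends on 1 library, because the log2FC of 4.01 (SE 0.45) became 3.09 without the Ajcl Day 5 replicate 3 and 4.55 without the replicate 2.

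Tmem178 was at 11.9, 8.39 and 13.1 CPM in the Ajcl baseline libraries and at 7.92, 10.4 and 12.9 CPM in the ByJcl ones. Its Day 5 levels were 53, 35.3 and 45.3 CPM in Ajcl and 43.5, 45.2 and 38.3 CPM in ByJcl. The substrains overlapped at both times, and the Ajcl replicate 1 that the fit leaves out was here the highest of all libraries. The Ajcl mean went from 11.1 ± 2.44 (SD, n = 3) to 40.3 ± 7.13 CPM (SD, n = 2), a fitted fold of 3.67. The ByJcl mean went from 10.4 ± 2.47 to 42.3 ± 3.59 CPM (SD, n = 3 each), a fitted fold of 4.03.

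Cox6b2 was at 5.20, 4.30 and 3.95 CPM in the Ajcl baseline libraries and at 3.76, 3.63 and 3.77 CPM in the ByJcl baseline libraries, where the 3 values were nearly the same. At Day 5 it was at 21.9, 13.1 and 24.5 CPM in Ajcl and at 26.7, 23.2 and 19.6 CPM in ByJcl. The lowest Day 5 library was the Ajcl replicate 2, and it was still 2.52 times the highest Ajcl baseline library. The Ajcl mean went from 4.48 ± 0.642 (SD, n = 3) to 18.8 ± 8.04 CPM (SD, n = 2), a fitted fold of 4.23. The ByJcl mean went from 3.72 ± 0.0805 to 23.2 ± 3.53 CPM (SD, n = 3 each), a fitted fold of 6.15. Without the Ajcl Day 5 replicate 3 the Ajcl log2FC of 2.08 (SE 0.25) became 1.54.

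**Figure D1:**
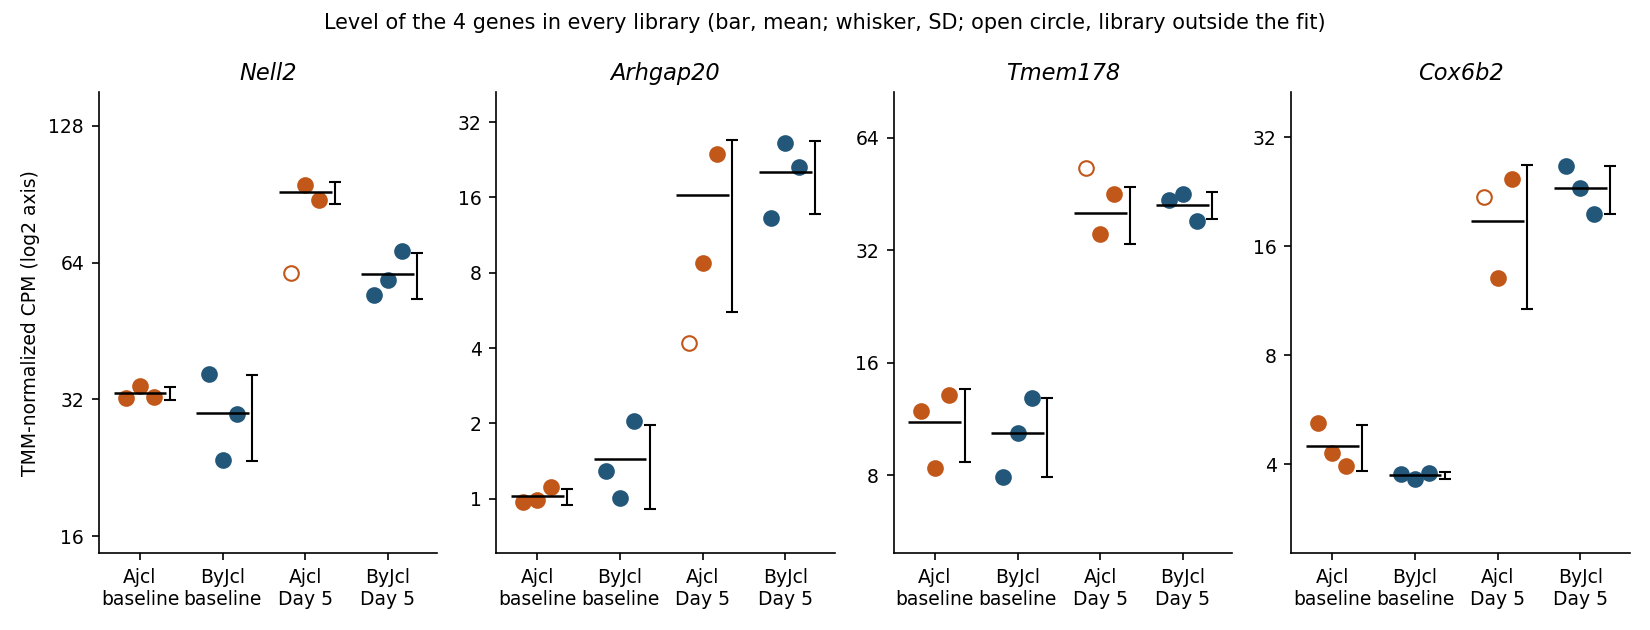
TMM-normalized CPM (log2 axis) of the 4 genes in each of the 12 libraries by group, with the mean (bar) and SD (whisker) over the libraries of the fit. The open circle is the Ajcl Day 5 replicate 1, which lay outside the fit, and for each gene all Day 5 libraries, from 54.3 CPM for Nell2 and from 13.1 CPM for Cox6b2, lay above all baseline libraries.

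Such a separation was common in these data and was part of what chose the genes, so nothing is read from it. All Day 5 libraries of the fit lay above all baseline libraries for 13.4% of the 17002 tested genes in Ajcl, for 6.75% in Ajcl when the replicate 1 was included, and for 18.0% in ByJcl. By edgeR's quasi-likelihood test, adjusted over all tested genes as Benjamini and Hochberg proposed, 0.306% of the genes were called higher at Day 5 in Ajcl and 5.75% in ByJcl. In either direction it called 0.312% in Ajcl and 10.6% in ByJcl. Its unadjusted p was below 0.05 for 9.80% of the genes in Ajcl and 26.8% in ByJcl.

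The order of the genes by abundance depends on transcript length, and was therefore set by CPM per kilobase of annotated exon. On that scale Cox6b2 was the most abundant of the 4 at baseline in Ajcl, at 4.04 ± 0.579 CPM per kilobase (SD, n = 3), followed by Nell2 at 2.51 ± 0.0862, Tmem178 at 1.17 ± 0.257 and Arhgap20 at 0.0764 ± 0.00567. The libraries of neighbours in this order did not overlap. In ByJcl at Day 5 the order began again with Cox6b2, at 20.9 ± 3.18 CPM per kilobase (SD, n = 3), and ended with Arhgap20 at 1.51 ± 0.493, while Nell2 at 4.59 ± 0.535 and Tmem178 at 4.46 ± 0.378 did not differ beyond their spread. In the Ajcl Day 5 libraries of the fit Nell2 was at 6.96 ± 0.385 and Tmem178 at 4.25 ± 0.751 (SD, n = 2), without overlap. In the Ajcl Day 5 replicate 1, outside the fit, they were at 4.62 and 5.58.

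The first tested question was whether the substrains differed in these genes before the drug. In untreated mice edgeR's quasi-likelihood test called 0 of the 4 genes, none had an unadjusted p below 0.05, and DESeq2 called 0. Of all tested genes 0.159% were called. The log2FC of ByJcl relative to Ajcl was -0.12 for Nell2 (95% interval -0.45 to 0.21, edgeR adjusted p = 0.814). It was 0.53 for Arhgap20 (95% interval -0.38 to 1.44, edgeR adjusted p = 0.693). It was -0.07 for Tmem178 (95% interval -0.50 to 0.37, edgeR adjusted p = 0.931). It was -0.24 for Cox6b2 (95% interval -0.74 to 0.26, edgeR adjusted p = 0.737). For Arhgap20, with its few counts, a baseline ratio anywhere from 0.770 to 2.71 remained inside the interval, so the design could not resolve a difference of that size.

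At Day 5, Nell2 was the only one of the 4 with an unadjusted p below 0.05 between the substrains, and it was lower in ByJcl. Its log2FC was -0.60 (SE 0.16, 95% interval -0.96 to -0.23), which is 0.662 times the Ajcl level. The unadjusted p was 0.00398 in edgeR's quasi-likelihood test and the adjusted p was 0.168, so that Nell2 was not called, and the number of calls among the 4 was 0 against 0.165% of all tested genes. DESeq2 gave a log2FC of -0.59 with an adjusted p of 0.0422 and called Nell2 alone among the 4. With the Ajcl replicate 1 in the fit the log2FC was -0.43 (edgeR adjusted p = 0.248), and in that library Nell2 was at 60.7 CPM, within the range of the ByJcl Day 5 libraries. Over the 20 alternative settings the log2FC ran from -0.70 to -0.43 and the adjusted p from 0.0422 to 0.988. These Day 5 libraries are among those that chose the gene. Sums of tubular markers also differed between the substrains at Day 5. The 8 distal nephron and collecting duct markers summed to 819 to 2030.3 CPM in the 3 Ajcl libraries and to 97.9 to 512 CPM in the 3 ByJcl libraries, without overlap. At baseline these sums were 526 to 1671 CPM and 137 to 541 CPM. The 8 proximal tubule markers summed to 1461 to 3834 CPM at Day 5 in Ajcl and to 367 to 1601 CPM in ByJcl, which overlapped. The part of these markers in the difference of Nell2 was not tested.

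The other three genes did not pass the test at Day 5. The log2FC of Arhgap20 was 0.31 (95% interval -0.60 to 1.23, edgeR adjusted p = 0.758), and it turned to -0.24 without the Ajcl Day 5 replicate 2. For Tmem178 it was 0.07 (95% interval -0.41 to 0.55, edgeR adjusted p = 0.904), and it turned to -0.10 without the same library and to -0.07 with all 12 libraries. For Cox6b2 it was 0.30 (95% interval -0.24 to 0.84, edgeR adjusted p = 0.599), and it turned to -0.08 without that library. The Tmem178 interval keeps the ByJcl level between 0.753 and 1.46 times the Ajcl level.

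The interaction asks whether the response to ADR differed between the substrains. It is the difference between the Ajcl and ByJcl responses that chose the genes. A lack of calls among the 4 is therefore not independent of the choice. edgeR called 0 of the 4 genes and 0% of all 17002 tested genes, although 1363 genes had an unadjusted p below 0.05 and DESeq2 called 22. None of the 4 had an unadjusted p below 0.05 and DESeq2 called 0 of them. The response of Nell2 was smaller in ByJcl by a log2FC of -0.48 (95% interval -0.97 to 0.01, edgeR adjusted p = 0.625). The response of Cox6b2 was larger in ByJcl by 0.54 (95% interval -0.20 to 1.28, edgeR adjusted p = 0.691). For Tmem178 the value was 0.14 (95% interval -0.51 to 0.79, edgeR adjusted p = 0.927). For Arhgap20 it was -0.22 (95% interval -1.49 to 1.06, edgeR adjusted p = 0.946), and it turned to 0.22 with all 12 libraries. The interval of Arhgap20 admits a response in ByJcl from 0.356 to 2.08 times that in Ajcl.

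**Figure D2:**
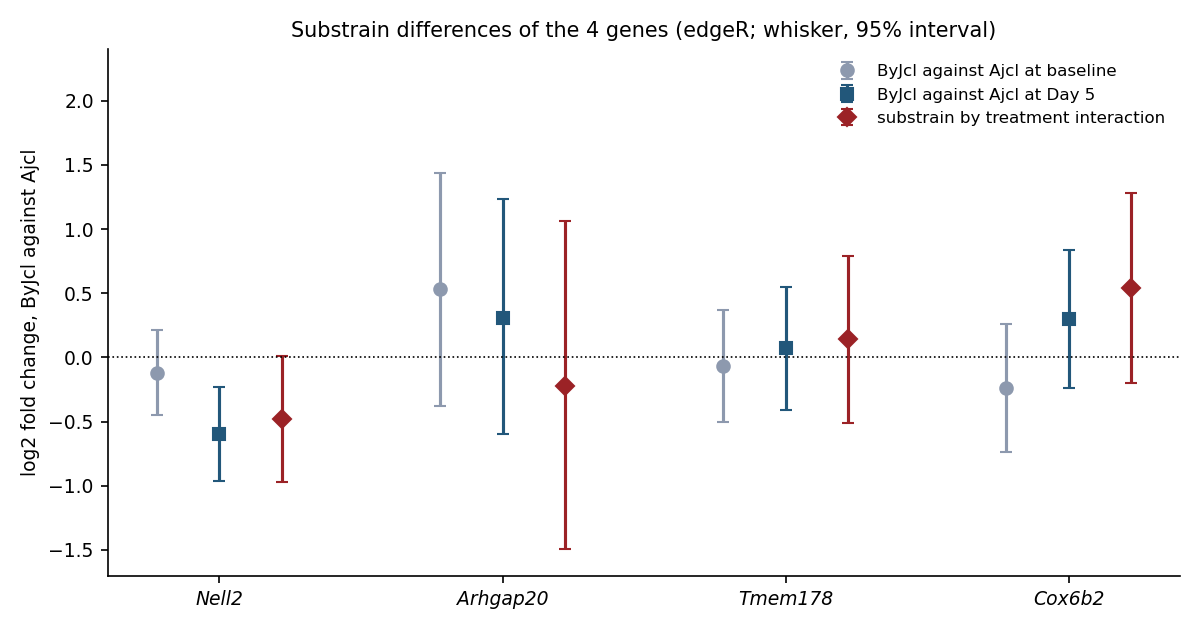
Log2 fold change of ByJcl relative to Ajcl for the 4 genes at baseline, at Day 5 and as the interaction (the difference between the Day 5 and the baseline value), with 95% intervals from the edgeR fit over 11 libraries. Only the Day 5 interval of Nell2, -0.96 to -0.23, excludes 0 before adjustment over the 17002 genes.

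The Ajcl Day 5 libraries differed from each other in the 4 genes and in cell type markers, and the genes did not share 1 order of the libraries. Arhgap20, Tmem178 and Cox6b2 were lower in the replicate 2 than in the replicate 3, at 8.73 against 23.9 CPM, 35.3 against 45.3 CPM and 13.1 against 24.5 CPM. The same held for Cdkn1a, the cyclin-dependent kinase inhibitor that p53 induces, at 277 against 552 CPM. Nell2 went the other way, at 95 against 87.8 CPM. The summed level of the 10 podocyte markers was 16798 CPM in the replicate 2, 12638 CPM in the replicate 3 and 11515 CPM in the replicate 1. The summed level of the 8 proximal tubule markers was 3834 CPM in the replicate 1, against 1955 and 1461 CPM in the other two. The part of these markers in the values of the 4 genes was not tested.

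Marker sums also differed between times. The podocyte sum was 15743 to 21235 CPM in the Ajcl baseline libraries and 19472 to 22479.9 CPM in the ByJcl ones, and at Day 5 it was 11515 to 16798 CPM in Ajcl and 9904 to 14024 CPM in ByJcl. In ByJcl, 9 of the 10 podocyte markers fell and 1 rose by edgeR, against 10.6% of all tested genes called there in either direction. In Ajcl, where edgeR called 0.312% of all tested genes, it called 0 of the 10. Of these 10, 4 had an unadjusted p below 0.05, against 9.80% of all tested genes, and DESeq2 called 3. The difference between the substrains in these counts was not tested. The proximal tubule sum overlapped between baseline and Day 5 in both substrains. It was 969.9 to 3661 and 1461 to 3834 CPM in Ajcl, and 393 to 1814 and 367 to 1601 CPM in ByJcl. Of its 8 markers, edgeR and DESeq2 called 0 in either substrain. An unadjusted p below 0.05 was found for 0 of the 8, against 9.80% of all tested genes in Ajcl and 26.8% in ByJcl. Of the other lists in ByJcl, edgeR called 2 of 8 glomerular endothelial markers lower, and 1 of 7 tested mesangial and smooth muscle markers, 2 of 5 parietal epithelial markers and 1 of 8 macrophage and lymphocyte markers higher. Beside the 10.6% of all tested genes, nothing is read from these counts. It called 0 of 8 distal nephron markers (1 at an unadjusted p below 0.05 and 1 by DESeq2). In such bulk samples fewer cells of a type and less RNA per cell cannot be told apart. The 1 erythroid marker tested of 5 fell in both substrains. Podocyte and glomerular endothelial markers each summed to at least 9904 CPM in every library.

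Nell2 is best known from neurons and Cox6b2 from testis. Of the neuron and Schwann cell markers, Tubb3, Snap25 and Sox10 stayed below 1 CPM in all 12 libraries. Rbfox3, which encodes the neuronal nuclear protein NeuN, was at 0.171 to 0.774 CPM at baseline and at 0.243 to 1.86 CPM at Day 5. These 4 summed to 0.214 to 0.947 CPM at baseline and to 0.287 to 2.27 CPM at Day 5. The list as chosen held further markers that are not reported here, so these sums do not stand for the whole list. Of 6 male germ cell markers, Prm2 and Tnp1 had 0 counts in all libraries and Ddx4, Prm1 and Ldhc were below 1 CPM. The sum of the 6 germ cell markers was 0.258 to 1.04 CPM at baseline and 0.464 to 2.16 CPM at Day 5, and Acr, which encodes the sperm protease acrosin, gave the largest part of the sum in each library, at 0.231 to 0.965 CPM and 0.287 to 1.70 CPM. In ByJcl 1 of the 2 tested germ cell markers, Ddx4, had an unadjusted p below 0.05 at Day 5, against 26.8% of all tested genes. It missed the threshold (edgeR adjusted p = 0.0575), and DESeq2 called 1 of the 2 higher. The part of these markers in the values of Nell2 and Cox6b2 was not tested.

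Known p53 targets were compared with the 4 genes because adriamycin damages DNA. These targets were listed with earlier results of these data known, so the shares are descriptions. Of 30 such genes, all tested, 10 rose and 0 fell at Day 5 in Ajcl, where 0.306% of all tested genes rose, with a median log2FC of 1.00 against -0.009 over all tested genes. In ByJcl 22 rose and 0 fell, against 5.75% of all tested genes that rose, with a median of 1.38 against 0.007. Cdkn1a went from 27.4 ± 5.28 (SD, n = 3) to 415 ± 194 CPM (SD, n = 2) in Ajcl, a log2FC of 3.94 (SE 0.30, edgeR adjusted p = 0.000257), and from 21.8 ± 1.72 to 725 ± 204 CPM (SD, n = 3 each) in ByJcl, a log2FC of 5.04 (SE 0.31, edgeR adjusted p = 1.60e-05). Ccng1, which encodes cyclin G1, rose by a log2FC of 1.68 in Ajcl and 2.10 in ByJcl. Psrc1, which encodes a microtubule-binding protein, rose by 4.18 and 6.29, and Eda2r, a receptor of the tumour necrosis factor family, by 4.23 and 4.89. Phlda3, an inhibitor of Akt, rose by 2.52 and 3.15.

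On the same scale the fitted log2FC of the 4 genes at Day 5 were 1.48 (Nell2), 4.01 (Arhgap20), 1.87 (Tmem178) and 2.08 (Cox6b2) in Ajcl, and 1.00, 3.79, 2.01 and 2.62 in ByJcl. These values chose the 4 genes, and nothing is read from them. The number of p53 targets called in Ajcl was 5 in place of 10 without the Ajcl Day 5 replicate 3 and 6 without the Ajcl baseline replicate 1, and DESeq2 called 17. Between the substrains edgeR called 0 of the 30 at baseline, 0 at Day 5 (2 without the Ajcl Day 5 replicate 3) and 0 in the interaction. The log2FC of ByJcl relative to Ajcl was positive for 12, 25 and 26 of the 30. The medians were -0.07, 0.33 and 0.44, against 0.008, 0.002 and 0.003 over all tested genes, and this direction was not tested. The numbers with an unadjusted p below 0.05 were 1, 7 and 5, against 8.34%, 14.0% and 8.02% of all 17002 tested genes, and DESeq2 called 0, 2 and 1, against 101, 535 and 22 genes in all.

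**Figure D3:**
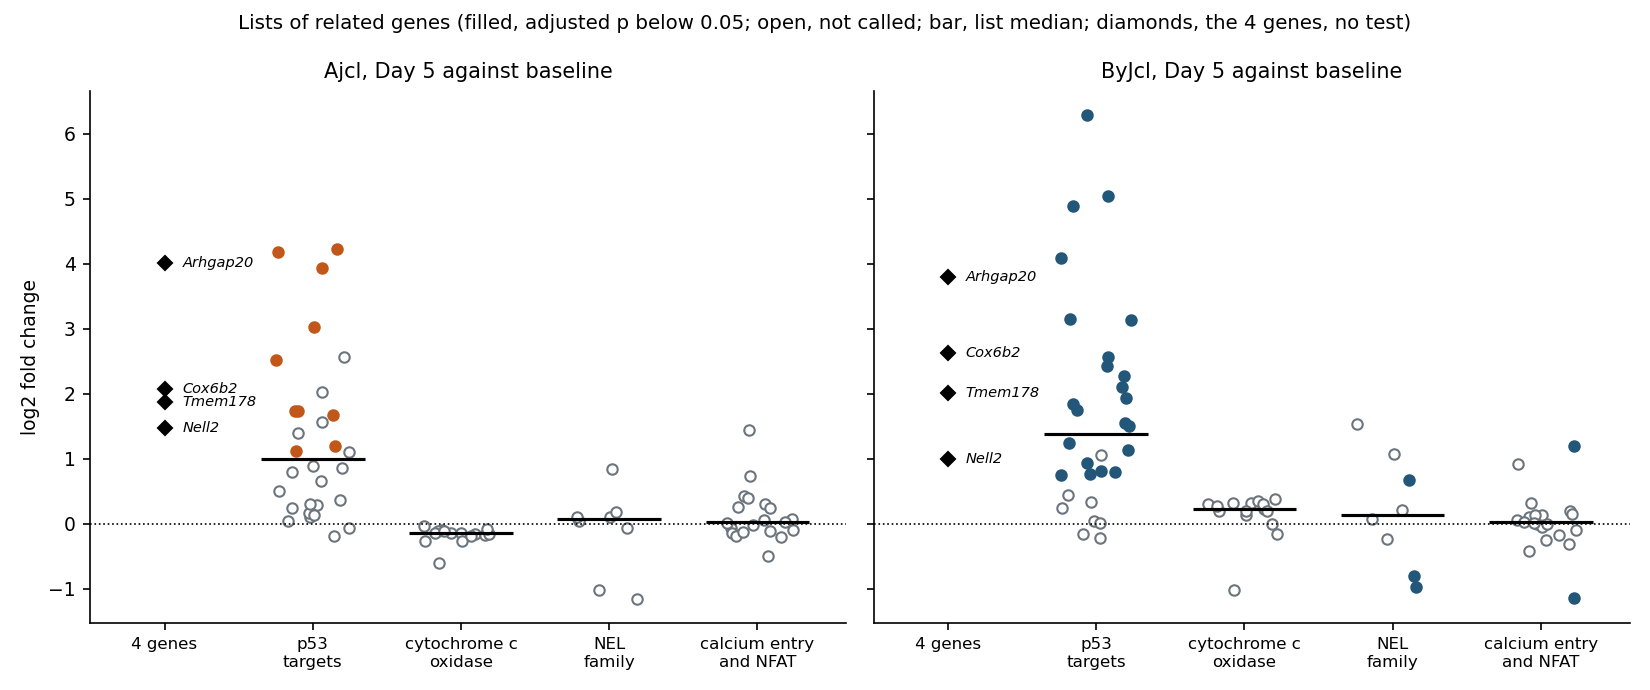
Log2 fold change at Day 5 relative to baseline in Ajcl and in ByJcl for the 4 genes (diamonds, no test) and for the genes of 4 lists, filled where the edgeR adjusted p is below 0.05, with list medians as bars. The p53 list, with medians of 1.00 and 1.38, lies above 0, and the medians of the other lists lie between -0.14 and 0.22.

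Of 12 genes of the NEL family and its receptors and processing, 8 were tested, and edgeR called 0 at Day 5 in Ajcl. There 1 had an unadjusted p below 0.05, against 9.80% of all tested genes, and DESeq2 called 1. In ByJcl 1 rose and 2 fell, 3 of 8 against 10.6% of all tested genes. The count was 1 without the ByJcl baseline replicate 2 (a fall) and 1 without the ByJcl Day 5 replicate 2 (a rise), and in Ajcl it was 1, a fall, without the ByJcl Day 5 replicate 2, with all 12 libraries and with only the 2 groups compared in the fit. Robo3, the receptor of Nell2, was low throughout, at 0.675 ± 0.280 CPM (SD, n = 3) in ByJcl at baseline and 2.01 ± 0.634 CPM (SD, n = 3) at Day 5, a log2FC of 1.54 (SE 0.46) that missed the threshold (edgeR adjusted p = 0.0550). Robo2, an axon guidance receptor that podocytes also carry, fell in ByJcl from 444 ± 54.8 to 229.8 ± 33.0 CPM (SD over 3 libraries each), with log2FC -0.97 (SE 0.20, edgeR adjusted p = 0.0138). In Ajcl the log2FC of Robo2 was 0.05 (SE 0.22, edgeR adjusted p = 0.965), and the interaction was -1.01 (SE 0.30, edgeR adjusted p = 0.620). Robo1 did not pass the test in any contrast. Apcdd1, a membrane protein of Wnt signalling, fell from 51.9 ± 9.74 to 29.8 ± 9.31 CPM (SD, n = 3 each) in ByJcl, a log2FC of -0.81 (SE 0.21, edgeR adjusted p = 0.0339). In Ajcl its means were 64.9 ± 1.2 CPM (SD, n = 3) and 29.1 ± 3.58 CPM (SD, n = 2), and the log2FC of -1.15 (SE 0.24) missed the threshold (edgeR adjusted p = 0.102). Itgb1, integrin beta 1, rose in ByJcl from 1243 ± 97.8 to 1990.4 ± 198 CPM (SD, n = 3 each). Between the substrains edgeR called 0 of the 8 at baseline, at Day 5 (1 without the Ajcl Day 5 replicate 3) and in the interaction, 2 had an unadjusted p below 0.05 in each (8.34%, 14.0% and 8.02% of all tested genes), and DESeq2 called 0, 2 and 0. Nell1, the paralog of Nell2, had 0 to 8 counts in the baseline libraries and 0 to 16 at Day 5 and was not tested.

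Rap1a and Rap1b, which encode the GTPases that bind Arhgap20, had ByJcl log2FC of 0.44 and 0.24 (edgeR adjusted p = 0.140 and 0.279). In Ajcl they had log2FC of -0.20 and -0.08 (edgeR adjusted p = 0.815 and 0.906). The antisense gene Arhgap20os had 0 to 4 counts in the baseline libraries. At Day 5 it had 0, 10 and 26 counts in Ajcl and 2, 16 and 4 in ByJcl, against 196 to 1187 counts of Arhgap20 in the same libraries. Its baseline counts were at or near the floor of 3 counts, so no fold is given, and it was called in neither substrain (adjusted p = 0.330 in Ajcl and 0.135 in ByJcl, edgeR).

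Tmem178 acts in store-operated calcium entry. Of 20 genes of that pathway and of NFAT signalling, all tested, edgeR called 0 at Day 5 in Ajcl. There 2 had an unadjusted p below 0.05, against 9.80% of all tested genes, and DESeq2 called 0. In ByJcl 1 rose and 1 fell, 2 of 20 against 10.6% of all tested genes. Orai2, a subunit of the calcium channel, rose from 5.13 ± 1.25 to 11.8 ± 1.07 CPM (SD over 3 libraries each), with log2FC 1.19 (SE 0.20, edgeR adjusted p = 0.00612). Itpr3, a calcium release channel of the endoplasmic reticulum, fell from 301 ± 23.0 to 138 ± 24.3 CPM (SD over 3 libraries each), with log2FC -1.14 (SE 0.17, edgeR adjusted p = 0.00325). Between the substrains edgeR and DESeq2 called 0 of the 20 at baseline, at Day 5 and in the interaction, where 1, 3 and 3 had an unadjusted p below 0.05, against 8.34%, 14.0% and 8.02% of all tested genes. Stim1, the partner of Tmem178, had log2FC of 0.43 in Ajcl and 0.32 in ByJcl (edgeR adjusted p = 0.343 and 0.161). The paralog Tmem178b was scarce, at 0.398 ± 0.382 CPM in ByJcl at baseline and 0.758 ± 0.259 CPM at Day 5 (SD, n = 3 each), and its log2FC of 0.92 did not pass the test (edgeR adjusted p = 0.457).

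Of 18 cytochrome c oxidase genes, Cox6b2 left out, 15 were tested, and edgeR called 0 in any of the 5 contrasts. Of all tested genes it called 0.312% at Day 5 in Ajcl, 10.6% at Day 5 in ByJcl, and 0.165% or less between the substrains. Without the Ajcl baseline replicate 2 it called 3 of the 15 higher at Day 5 in ByJcl and 1 lower in ByJcl than in Ajcl at baseline. With only the groups compared in the fit it called 1 of 14 higher at Day 5 in ByJcl. At Day 5 the 15 had log2FC from -0.60 to -0.03 in Ajcl, with a median of -0.14, and from -1.02 to 0.38 in ByJcl, with a median of 0.22. In these contrasts 0 and 2 genes had an unadjusted p below 0.05, against 9.80% and 26.8% of all tested genes, and DESeq2 called 0 in both. Between the substrains the counts at an unadjusted p below 0.05 were 8 at baseline, 0 at Day 5 and 6 in the interaction, and DESeq2 called 0 in each. Over all 17002 genes the counts at an unadjusted p below 0.05 were 1418 at baseline and 1363 in the interaction. At baseline all 15 had a negative log2FC in ByJcl, with a median of -0.32. The tubular marker sums were also lower there, at 137 to 541 CPM in ByJcl against 526 to 1671 CPM in Ajcl for the distal nephron list and at 393 to 1814 against 969.9 to 3661 CPM for the proximal tubule list, with overlap in both. The part of these markers in the values of the oxidase genes was not tested.

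Cox6b1 can take the place of Cox6b2 in the enzyme. Cox6b1 was at 123 ± 28.8 (SD, n = 3) and 111 ± 9.38 CPM (SD, n = 2) in Ajcl at baseline and Day 5, a log2FC of -0.14 (SE 0.16, edgeR adjusted p = 0.846). In ByJcl it was at 99.4 ± 5.10 and 116 ± 11.7 CPM (SD over 3 libraries each), with log2FC 0.20 (SE 0.15, edgeR adjusted p = 0.417). Per kilobase of exon, Cox6b2 made up 6.43%, 8.39% and 5.96% of the sum of both genes in the Ajcl baseline libraries and 6.83%, 6.66% and 7.47% in the ByJcl ones. At Day 5 the Ajcl libraries had shares of 13.5%, 18.2% and 32%, and the ByJcl libraries 29.4%, 29.0% and 27.2%. As a share of the counts, with no scaling by length, Cox6b2 made up 3.07% to 4.37% in the 6 baseline libraries, 7.22%, 10.0% and 19.0% in Ajcl at Day 5 and 15.7% to 17.2% in ByJcl, so the size of the share depends on the exon lengths used. Cox6b1 thus remained the more abundant of the pair in every library. The lowest share at Day 5, 13.5%, was that of the Ajcl replicate 1, where Cox6b1 was at 281 CPM against 93.5 to 152 CPM in the other 11 libraries, and where the proximal tubule sum was also the highest of the 12.

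**Figure D4:**
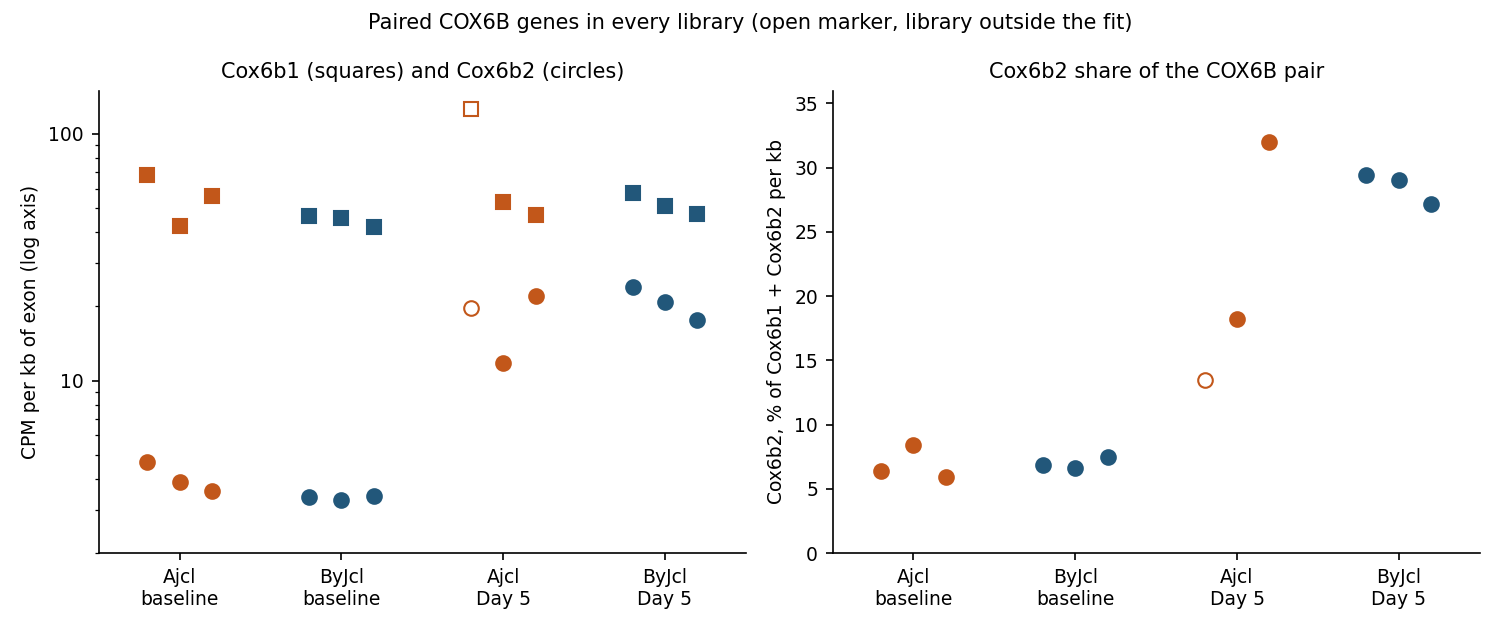
Left, CPM per kilobase of exon (log axis) of Cox6b1 (squares) and Cox6b2 (circles) in each library, by group. Right, the share of Cox6b2 in the sum of both, in percent, which was 5.96 to 8.39% at baseline and 13.5 to 32% at Day 5, with the library outside the fit as an open marker.

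Of the 7 tested genes that lie beside the 4 in the genome or overlap them, edgeR called 1 at Day 5 in ByJcl, against 10.6% of all tested genes, and nothing is read from this count. Kmt5c, 4273 bases from Cox6b2 on the side of its 3′ end, was at 38.5 ± 5.47 CPM in ByJcl at baseline and fell to 28.3 ± 2.36 CPM (SD, n = 3 each) at Day 5, a log2FC of -0.46 (SE 0.13, edgeR adjusted p = 0.0486). Il11, 19278 bases away on the other side, had log2FC of 0.67 in Ajcl and 0.85 in ByJcl and did not pass the test (edgeR adjusted p = 0.737 and 0.238). Tmem117, which overlaps Nell2, had log2FC of 0.21 and 0.52 (edgeR adjusted p = 0.904 and 0.350), from Ajcl and ByJcl baseline means of 2.90 ± 1.10 and 1.57 ± 0.521 CPM (SD over 3 libraries). Thumpd2, beside Tmem178, had log2FC of 0.12 and -0.03, Pou2af1, beside Arhgap20, of 0.41 and -0.67, and Twf1, beside Nell2, of -0.12 and 0.14, none of them called. Dbx2, C230072F16Rik and 4933407I05Rik, the other neighbours, had too few counts to be tested.

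The genes most like each of the 4 were taken as the 5 tested genes with the highest Pearson correlation of log2(CPM + 0.5) over the 12 libraries. The 12 points fall into 6 baseline and 6 Day 5 libraries, so that any gene with a clear difference between them correlates highly, and the values are descriptions. For Cox6b2 the 5 were Phlda3 (r = 0.990), Ccng1 (0.985), Zfp365 (0.984), Spaca3 (0.981) and Psrc1 (0.980), of which Phlda3, Ccng1 and Psrc1 are on the p53 list. For Tmem178 they were 1700007K13Rik (r = 0.983), Ccng1 (0.979), Cox6b2 (0.969), Inka2 (0.961) and Psrc1 (0.958). For Arhgap20 they were Col10a1 (r = 0.992), Grin2a (0.987), Serpina3h (0.983), Serpina3i (0.981) and Nyx (0.980), with no gene of the p53 list among them.

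Nell2 stood further from other genes, and 4 of its 5 were Inka2 (r = 0.899), Clca3a1 (0.895), Pcdh15 (0.891) and Ccng1 (0.891). The lists depended on the Ajcl Day 5 replicate 1. Without that library 2 of the 5 genes listed for Nell2, and 3 of the 5 for each of the other three genes, were again among the 5. Ccng1 was listed for 3 of the 4 genes, and without that library for Tmem178 alone, where it ranked 4, against 13 for Nell2 and 8 for Cox6b2. Among the 4 themselves, Tmem178 and Cox6b2 were the most alike (r = 0.97), and Nell2 had r of 0.84 to 0.85 with the other three. Without the Ajcl Day 5 replicate 1 the correlation of Arhgap20 with Tmem178 went from 0.89 to 0.96, and that with Cox6b2 from 0.91 to 0.97. Several of the genes listed were scarce, with Grin2a, Nyx, Pcdh15 and Spaca3 below 1 CPM in every group mean, so their values rest on few counts.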

How the data were processed

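RNA of glomeruli isolated by perfusion with magnetic beads, collagenase digestion and magnetic separation was sequenced from poly(A)-selected, strand-specific libraries. Reads were checked with FastQC, trimmed (Trimmomatic) and aligned (STAR, genome GRCm39), and the authors deposited the featureCounts output as raw whole-number counts of each gene symbol in each library. The annotation and strand setting are not given in the sources used here. Total counts were 42198416 to 54687045 in the 12 libraries. Of the counts from 1 to 49, 77.08% to 82.85% were even, so single counts were not all independent of each other. The reason was not tested.

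The 4 genes and the lists of related genes and markers were chosen with earlier results of these data known. Samples were grouped by their labels. In R 4.3.3 with edgeR 4.0.16, filterByExpr by group kept 17002 genes, TMM scaled the libraries, and a quasi-likelihood model with 1 coefficient for each of the 4 groups was fitted to 11 libraries, without the Ajcl Day 5 replicate 1. Calls are Benjamini-Hochberg adjusted p below 0.05 over all tested genes. Intervals are from the t distribution with 11.1 degrees of freedom, as recovered from the test of each gene, against 7 residual ones in the fit. The step was tested on simulated data. DESeq2 1.42.0, RLE, other filters, other libraries and a replicate block were alternatives. Whether the libraries of a group come from separate mice is not stated per library, so p-values measure the spread between these libraries. Same replicate numbers are different mice, and their deviations had a median correlation of 0.027 over 15 pairs, so the numbers were not taken as pairs. Levels are CPM with TMM factors of all 12 libraries, and CPM per kilobase uses the union of GENCODE exons, for which 23897 symbols matched. The floor of 3 counts covers counting error only. Named are the 4 genes, their fixed paralogs and partners, the nearest genes, up to 4 called genes per list, direction and contrast, and the 5 most correlated genes. Some of these genes and 1 list are not reported here. Figures were made with matplotlib 3.10.9 in Python 3.11.15.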

Additional observations from a re-analysis of the deposited data

Results flagged for a closer look

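The Ajcl Day 5 replicate 1 lay outside the fit, and the 4 genes were measured in it all the same. Each was above its highest baseline library there: Nell2 at 60.7 CPM against 36.4 CPM, Arhgap20 at 4.2 CPM against 2.04 CPM, Tmem178 at 53 CPM against 13.1 CPM and Cox6b2 at 21.9 CPM against 5.20 CPM. Relative to the Ajcl baseline mean these levels were 1.84, 4.10, 4.76 and 4.87 times as high. Against the lower of the other two Ajcl Day 5 libraries they were 0.691 times for Nell2 and 0.482 times for Arhgap20, but 1.5 times for Tmem178 and 1.67 times for Cox6b2. How many of all genes lay above their highest baseline library in this library was not counted, so nothing is read from these levels. For 6.75% of the tested genes all Ajcl Day 5 libraries, this one included, lay above all Ajcl baseline libraries. The proximal tubule markers summed to 3834 CPM in this library, the highest of the 12, and their part in the levels of the 4 genes was not tested. The library also stood apart over all genes, with chi-square per degree of freedom at 233.64 and 271.04 against the other Ajcl Day 5 libraries, 55.13 between those, and at most 100.54 between libraries of any other group.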

How the results depend on the processing

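Of the log2FC of the 4 genes between the substrains and in the interaction, 221 values under alternatives kept their direction and their side of the threshold, 14 changed sign and 1 newly passed, the Day 5 log2FC of Nell2 of -0.59 with DESeq2. None of those that changed sign passed the threshold under either setting. With all 12 libraries the sign changed for Arhgap20 in the interaction (0.22) and Tmem178 at Day 5 (-0.07), and with the replicate block for Arhgap20 in the interaction (0.08). Leaving out 1 library each gave -0.28 to 0.03 for Nell2 at baseline, -0.24 to 1.21 for Arhgap20 at Day 5 and -0.75 to 0.71 in the interaction, -0.25 to 0.10 for Tmem178 at baseline, -0.10 to 0.26 at Day 5 and -0.03 to 0.36 in the interaction, and -0.08 to 0.82 for Cox6b2 at Day 5. Of the Day 5 log2FC relative to baseline, 157 moved by less than the SD between libraries and 3 by more, all in Ajcl, Nell2 to 1.30 with all 12 libraries and, without the Ajcl Day 5 replicate 3, Arhgap20 to 3.09 and Cox6b2 to 1.54. Over all single left-out libraries the range was 3.09 to 4.55 for Arhgap20 and 1.54 to 2.45 for Cox6b2. The genes most correlated with each of the 4 also changed, as 2 of 5 (Nell2) or 3 of 5 (each other gene) were listed again without the Ajcl Day 5 replicate 1.

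The numbers of genes called depended more on the setting. DESeq2 called 101 genes at baseline, 535 at Day 5, 22 in the interaction and 301 in the Ajcl response, in place of 27, 28, 0 and 53 with edgeR. Without a filter the Day 5 count was 56 and the Ajcl count 99, and with all 12 libraries the Day 5 count was 72 and the ByJcl count 1197 in place of 1800. With only the groups compared in the fit the counts were 15 at baseline, 6 at Day 5 and 33 in Ajcl. The replicate block gave 26 in Ajcl, and replicate numbers here mark no shared animal. Over left-out libraries the counts were 12 to 29 at baseline, 9 to 232 at Day 5 (232 without the Ajcl Day 5 replicate 3), 0 to 5 in the interaction, 13 to 180 in Ajcl (13 without the Ajcl Day 5 replicate 3 and 180 without the replicate 2) and 680 to 2056 in ByJcl. The cause was not tested. Depth limits Arhgap20 most, with 42 to 112 counts at baseline.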
